A study of Mus musculus with 6 samples.

Results

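Organoids of the mouse fallopian tube (the oviduct) were profiled before they were put under the skin of mice and again as cultures derived from the growths that formed, and the genes described here are those that moved the same way in both genotypes that were followed. A gene belongs to this set if its signal was at least 2-fold higher, or at least 2-fold lower, in the tumour-derived culture than in its own source culture in each of 2 pairs. Of 15679 genes that could be tested, 600 met this rule, 399 of them higher and 201 lower after growth in the animal. The arrays came from 6 cultures with 1 array each. The Pik3ca/Trp53 pair carried Pik3caH1047R, a mutant catalytic subunit of PI3-kinase, together with Trp53 loss, and the tumour that gave its tumour-derived culture was classed as an adenocarcinoma. The Apc/Trp53 pair carried Apc580D, a mutant form of the scaffold protein that holds beta-catenin in check, together with Trp53 loss, and its growth was classed as a cyst. Loss of Trp53 was therefore shared by all 4 cultures of the pairs. The other 2 arrays held a control culture, from mice with floxed Trp53 and transduced with the empty vector, and a culture with Trp53 loss alone; both were taken before inoculation and serve here as further levels of ungrafted cells. All cultures were kept in a serum-free medium with EGF, R-spondin, Noggin, Jagged, an inhibitor of ROCK and an inhibitor of GSK3, so both members of a pair were grown in vitro before RNA was extracted. Both cells and hosts are mouse, and the labels name neither the host strain nor a step that separated host cells from organoid cells. The design text speaks of 3 pairs, and only the 2 given above were analysed here.

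The oviduct is lined by secretory cells, which make Pax8 and the oviduct glycoprotein Ovgp1, and by multiciliated cells, which depend on the transcription factor Foxj1. In culture such cells rest on a gel and are fed defined growth factors, whereas in a graft they meet host stroma, vessels and blood-borne nutrients and lay down matrix with their neighbours. The gene programmes that recur below have well known roles. Collagen and matrix proteins are folded by dedicated chaperones in the endoplasmic reticulum before secretion, and cells short of amino acids switch on the factor ATF4, which raises transporters and enzymes that supply amino acids.

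Levels are given as the log2 of the scanner's processed signal minus the 75th percentile of the array, so that 0 is the level of that percentile and a difference of 1 is a 2-fold change. Where a probe was not well above background on one side of a pair, a background limit was applied to its signal there. The limit was the faintest signal on the same array that passed the scanner's background test. A signal below the limit was raised to it, one above it was kept, and the ratio is written as at least that many fold. Between 45.4% and 51.0% of the 56605 probes were well above background on each array, no spot was saturated, and probes printed more than once had a median within-array SD of 0.0389 to 0.0798 log2 units. All arrays shared 1 slide and 1 scan. Both source arrays lay in slide row 1 and both tumour-derived arrays in row 2, so position and growth in the animal cannot be told apart within the pairs. The control and Trp53 loss arrays lie across the same rows, and the control (row 2) was at least 2-fold above Trp53 loss (row 1) for 85 of 398 genes of the higher set (21.4%) and at least 2-fold below it for 58 (14.6%), against 6.27% and 5.26% of all genes. In the lower set the control was at least 2-fold below Trp53 loss for 58 of 199 genes (29.1%) and at least 2-fold above it for 27 (13.6%). The median of control minus Trp53 loss was -0.351 against -0.0243 for all genes, the same direction as in the pairs. These 2 arrays also differ in Trp53 status and in the empty vector, so slide row cannot be told apart from them. Trp53, the gene lost in all but the control culture, had a level of 0.89 in the control, -6.59 in Trp53 loss, -5.02 in the Pik3ca/Trp53 source, -1.62 in its tumour-derived culture, -3.57 in the Apc/Trp53 source and -6.68 in its tumour-derived culture. All 5 cultures labelled with the loss were thus below the control, and whether the probe lies inside the deleted part is not given in the sources used here. Epithelial identity was clear in every culture: the level of Epcam lay between 3.50 and 4.45 and that of Krt8 between 5.61 and 7.25 over the 6 arrays.

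The first question was how far growth in the animal moved both genotypes alike. In the Pik3ca/Trp53 pair 2129 genes (13.6%) were higher after growth by 2-fold or more and 1840 (11.7%) were lower by as much. The same limits held 1768 genes (11.3%) on the higher side and 1246 (7.95%) on the lower side in the Apc/Trp53 pair. The 399 genes higher in both pairs were 2.54% of those tested and the 201 lower in both were 1.28%, whereas 829 genes (5.29%) moved at least 2-fold in opposite directions. Across all genes the pair differences had a Pearson correlation of -0.0578 and a Spearman correlation of -0.0614, which describes genes and not independent replicates, and 49.3% of genes had the same sign in both pairs. The sources resembled each other more (r = 0.958 across genes) than the tumour-derived cultures did (r = 0.838), and the number of genes at least 2-fold apart was 2399 between the sources and 5067 between the tumour-derived cultures.

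Each pair is 1 difference, and an exact permutation over 2 pairs cannot give a two-sided p under 0.5. A paired limma fit with genotype as a block called no gene higher (0%) and none lower (0%) at a Benjamini-Hochberg adjusted p of 0.05. The smallest adjusted p of that limma fit was 0.98, and at an unadjusted p under 0.05 it held 322 genes higher and 174 lower. The counts and values that follow are therefore descriptions of these cultures. Nothing in the labels says that the cultures were repeated, so any spread between samples here is that of these 6 arrays. The split of the set also depended on scaling: the higher genes were 66.5% of the 600 that moved alike with the 75th percentile, 58% with quantile normalization (340 higher and 246 lower) and 42.8% (281 higher and 375 lower) when arrays were scaled to their median, a choice that moved the median gene to -0.246 in the Pik3ca/Trp53 pair and -0.353 in the Apc/Trp53 pair from -0.115 and -0.0207. Under median scaling 281 of the 399 higher genes and all 201 lower genes stayed in their sets, and none of either set was opposite in sign in both pairs.

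**Figure D1:**
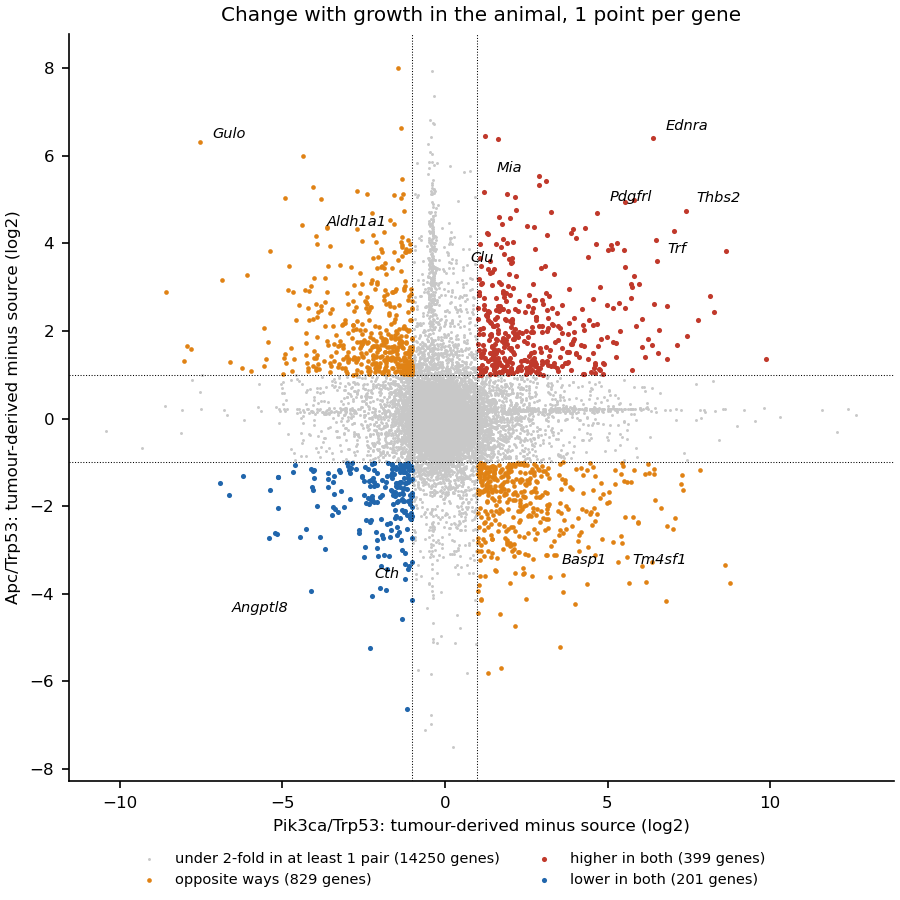
Tumour-derived minus source level (log2) of each of 15679 genes in the Pik3ca/Trp53 pair (horizontal axis) and in the Apc/Trp53 pair (vertical axis), with dotted lines at 2-fold. The 399 red and 201 blue points are the genes that moved the same way, the 829 orange points moved in opposite directions, and the cloud has no overall slope (r = -0.0578).

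Most genes of the set that was higher after growth were faint in culture. Their median level in the sources was -5.07, against -0.438 for all genes, and it was -2.31 in the tumour-derived cultures. A gene faint in both sources was tested only if a tumour-derived culture held it above background. The filter and the rule thus favour a low source level, which carries no weight as a trait of the set. For the lower set the medians were -1.48 before and -3.62 after. Only 157 of the 399 higher genes and 110 of the 201 lower ones were well above background on all 4 arrays, and with faint signals raised to the background limit 209 and 141 genes stayed past 2-fold. In 274 of the higher genes both tumour-derived cultures exceeded all 4 ungrafted cultures, in 152 of them by at least 2-fold. For 128 of the lower genes both tumour-derived cultures were below all 4 ungrafted ones, and for 32 the gap was at least 2-fold. The rule itself sets each tumour-derived culture apart from its own source. Only the control, Trp53 loss and the source of the other pair therefore add to these counts, and their share over all genes was not counted. The change was larger in the Pik3ca/Trp53 pair for 263 of the higher and 108 of the lower genes. Over all genes the differences were also wider in that pair (SD 1.44 against 1.09), so these counts carry no weight as a trait of the set. Protein-coding genes made up 90% of the higher, 92% of the lower and 92.6% of all genes. The rule has a sharp edge: 2010001A14Rik was just inside, at 1.04 and 1.00 log2 units higher, and Col9a3 just outside, at 4.78 and 0.997. On the lower side Cd79b was just inside, at -1.0 and -1.77, and B4galt4 just outside, at -0.997 and -1.52.

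The leading genes of the higher set encode several secreted and membrane proteins. Pdgfrl, a secreted protein related to the PDGF receptors, had a level of -3.17 in the control, -4.08 in Trp53 loss and -3.27 in the Pik3ca/Trp53 source, and 1.42 in the culture derived from it. In the Apc/Trp53 pair its level was -1.76 before and 2.92 after. Both tumour-derived cultures stood clear of all 4 ungrafted ones, and the ratios were 25.8-fold and 25.7-fold. C1qtnf12, an adipokine-like secreted protein, was at -1.95 and 3.34 in the Pik3ca/Trp53 pair and at -1.32 and 2.68 in the Apc/Trp53 pair, that is 39.2-fold and 16.0-fold higher. Mia, a small secreted protein that binds fibronectin, went with the same pattern at 7.38-fold and 40.6-fold. Cpn1, the catalytic subunit of the plasma enzyme carboxypeptidase N, was 5.79-fold and 21.1-fold higher, from -2.61 to -0.08 and from -3.09 to 1.31. Emid1, a protein with a collagen-like stretch, was at least 52.0-fold and 5.90-fold higher. Clic6, a chloride channel protein of secretory epithelia, had levels of -0.75 and 4.78 in the Pik3ca/Trp53 pair and -0.95 and 2.50 in the Apc/Trp53 pair (46.1-fold and 11-fold). Its control level of 1.45 lay between the sources and the tumour-derived cultures.

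Collagen folding was represented by Serpinh1, the collagen-specific chaperone of the endoplasmic reticulum. Its level was -0.22 in the control, -1.48 in Trp53 loss, -0.84 and 3.70 in the Pik3ca/Trp53 pair and close to 0 and 2.74 in the Apc/Trp53 pair, so both tumour-derived cultures were above the other 4, by 23.2-fold and 6.68-fold within their pairs. Other proteins of collagen and secretory protein folding stood in the same set and were picked out after their values were seen. Fkbp10, a prolyl isomerase that acts on procollagen, was 3.67-fold and 7.27-fold higher, and Rcn1, a calcium-binding protein of the endoplasmic reticulum, 2.32-fold and 6.77-fold. Sparc, a secreted collagen-binding glycoprotein, had levels of -3.88, -4.22, -3.82 and -3.55 in the 4 ungrafted cultures and of 2.0 and -0.29 in those derived from the Pik3ca/Trp53 and Apc/Trp53 growths. It was at least 29.8-fold and at least 7.51-fold higher. Sspn, a membrane protein of the dystrophin complex that links cells to laminin, was 18.6-fold and 5.69-fold higher, and Galnt18, an enzyme that starts O-linked glycans, at least 21.6-fold and at least 4.86-fold. The transcription factor Hoxb9, which patterns the posterior body axis, was at least 17.1-fold and 5.71-fold higher and reached 0.28 and 0.24 in the tumour-derived cultures.

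Some genes crossed the background limit only in the animal-grown cultures. In all, 153 genes were well above background in both tumour-derived cultures and in neither source, 42 of them with a ratio of at least 2-fold in both pairs by the bound. Ednra, the receptor for endothelin 1 on contractile and mesenchymal cells, was not well above background on any of the 4 ungrafted arrays (-6.38 to -7.08 at its pair sources) and had levels close to 0 and of -0.67 in the tumour-derived cultures, at least 18-fold and at least 18.5-fold higher. Edn1, which encodes the endothelin 1 ligand, lay on the opposite side of the rule, with levels of 1.41 and -1.02 in the Pik3ca/Trp53 pair and -0.70 and -2.63 in the Apc/Trp53 pair (5.41-fold and 3.81-fold lower). Thbs2, a matrix glycoprotein of the thrombospondin family, was at least 39.0-fold and at least 6.15-fold higher, and Myl9, a myosin light chain of contractile cells, at least 18.9-fold and at least 6.59-fold. Vegfc, the growth factor of lymphatic vessels, was at least 11.9-fold and at least 7.42-fold higher, and Prkg2, a cGMP-dependent kinase, at least 9.09-fold and at least 8.97-fold. Pitx1, a homeobox factor of hindlimb and pituitary, differed from these in that the control held it too: its level was -0.72 in the control, -3.48 in Trp53 loss, -5.63 and 0.86 in the Pik3ca/Trp53 pair and -5.37 and -1.29 in the Apc/Trp53 pair. It was at least 32.6-fold and at least 12-fold higher than in the sources.

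**Figure D2:**
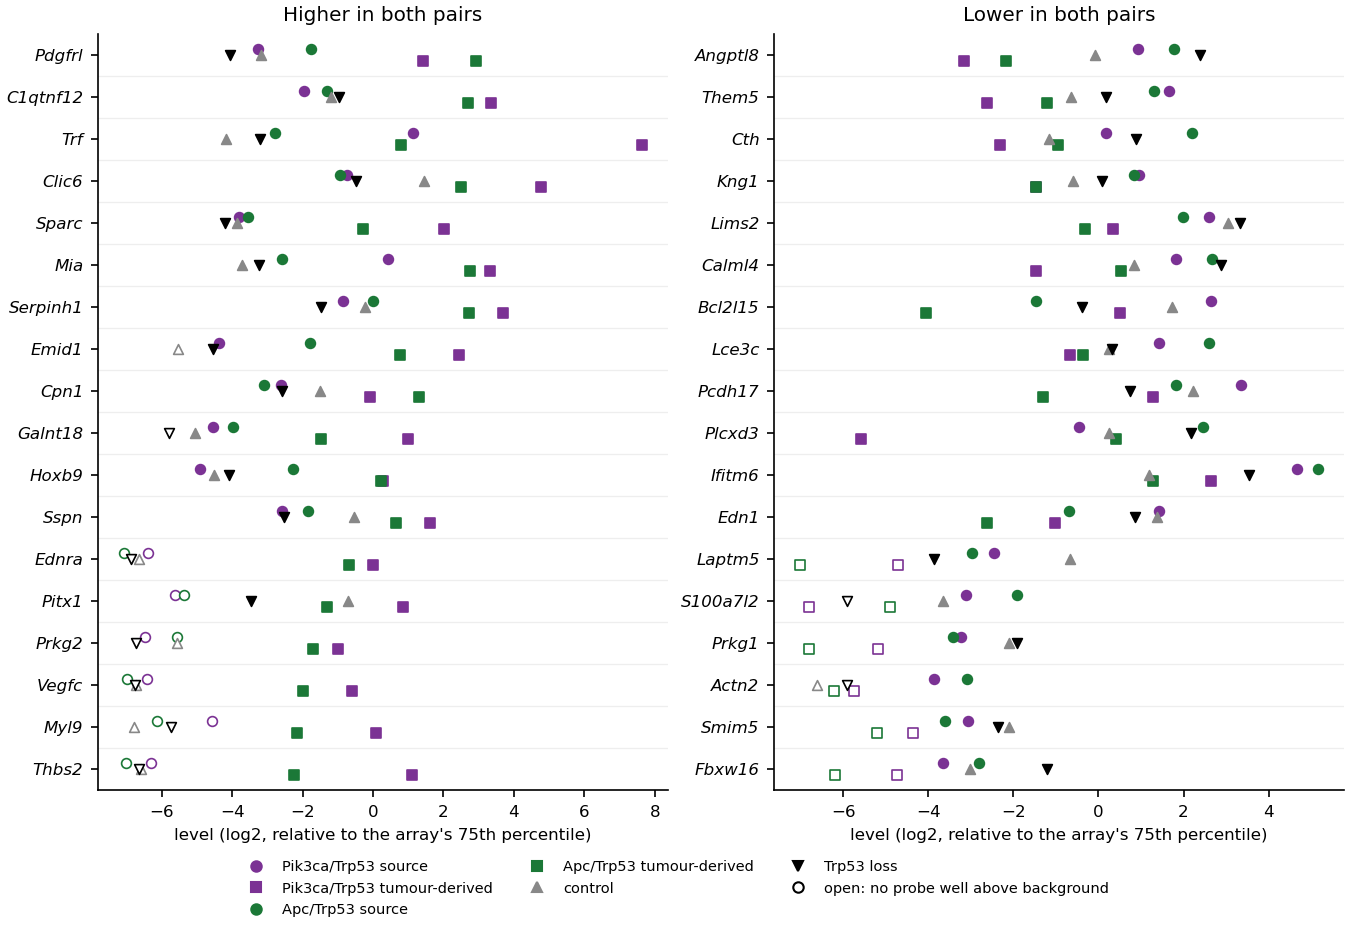
Level of the leading genes on each of the 6 arrays (log2, relative to the array's 75th percentile), with circles for sources, squares for tumour-derived cultures, triangles for the control and Trp53 loss, and open symbols where no probe was well above background. In the left panel the squares lie to the right of the circles of the same colour for all 18 genes, and in the right panel to the left of them, while the control triangle of Pitx1 (-0.72) sits among the squares.

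Mesenchymal genes were the list with the most members in the higher set. Of 20 tested genes of the list of epithelial-mesenchymal transition and mesenchymal genes, 5 were at least 2-fold higher in both pairs (Cdh2, Prrx1, Snai2, Sparc and Vim) and none was lower, against 2.54% and 1.28% of all genes. The median difference of the list was 1.41 in the Pik3ca/Trp53 pair and 0.433 in the Apc/Trp53 pair. Vim, the intermediate filament of mesenchymal cells, had levels of -4.53 and -1.05 in the Pik3ca/Trp53 pair and of -4.95 and -2.83 in the Apc/Trp53 pair, at least 8.67-fold and at least 4.15-fold higher. Its control level of -2.99 was close to that of the Apc/Trp53 tumour-derived culture. Snai2, a repressor of epithelial genes, reached only -2.72 and -4.47 in the tumour-derived cultures and was at least 2.73-fold and at least 1.33-fold higher. Cdh2, the cadherin of neural and mesenchymal cells, was at least 6.76-fold and at least 2.84-fold higher. Because 4 of these 5 genes, all but Sparc, were not well above background in either source, they entered the test through the tumour-derived cultures and had to differ, so the count carries no weight as a share. With normexp, and with only probes above background on all 4 arrays, Sparc was the single one of the 5 in the higher set.

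Markers of host cell types that a graft can hold were read on every array. Of 26 fibroblast markers, 3 (Pik3ca/Trp53) and 4 (Apc/Trp53) were above background in the sources and 9 and 7 in the tumour-derived cultures, against 2 in the control and 3 in Trp53 loss. Their summed signal, as a multiple of the 75th percentile signal, was 0.978 and 0.800 in the sources, 7.18 and 1.64 in the tumour-derived cultures and 0.804 and 0.980 in the control and Trp53 loss. Among these markers Dcn, Lum and Col3a1 were not well above background on any of the 6 arrays. Col1a1, at -3.92, and Postn, Sfrp2 and Lox were above background only in the Pik3ca/Trp53 tumour-derived culture. Pdgfrb and Pi16 were above it only in the Apc/Trp53 tumour-derived culture, and Col6a3 only in the Apc/Trp53 source. Of the 26 markers 14 could be tested. Col1a2, Fbn1 and Pdgfra were at least 2-fold higher in both pairs, against 2.54% of all genes. Pdgfra, a PDGF receptor, was at least 2.18-fold and at least 2.98-fold higher by the bound. Col1a2 and Fbn1 were above background in the Pik3ca/Trp53 tumour-derived culture alone, so their ratio in the Apc/Trp53 pair has no measured side. They entered the test through that culture, so the count carries no weight as a share. Among 18 markers of smooth muscle and pericytes, 6 and 7 were above background in the sources and 8 and 10 in the tumour-derived cultures, with summed signals of 51.3 and 36.3 against 48.8 and 33.5, and Myl9 was the member in the higher set. Of 25 leukocyte markers 9 and 8 were above background before and 8 and 7 after, with summed signals of 26.4 and 63.2 in the Pik3ca/Trp53 pair, 22.3 and 13.8 in the Apc/Trp53 pair and 81.1 and 38 in the control and Trp53 loss. Ptprc (CD45) was above background only in the Apc/Trp53 tumour-derived culture, for 1 of its 2 probes, at a level of -3.10. The mean level of both probes there was -5.01. The macrophage receptors Cd163 and Mrc1 were above background only in the Pik3ca/Trp53 tumour-derived culture. Other leukocyte markers went the other way. C1qb and Laptm5 were above background in both sources and in neither tumour-derived culture, and Lyz2 only in the Pik3ca/Trp53 source. Of 18 endothelial markers 6 and 9 were above background in the sources and 9 and 8 in the tumour-derived cultures. Their summed signals were 15 and 4.27 in the Pik3ca/Trp53 pair and 18.4 and 35.7 in the Apc/Trp53 pair. Of the 11 that could be tested none was in either set, against 2.54% of all genes higher and 1.28% lower. That count of 0 is near the background and is not a result. Another 4 moved at least 2-fold in opposite directions, against 5.29% of all genes. In bulk cultures fewer cells of a type and less RNA per cell cannot be told apart, and the part of host cells in these differences was not tested.

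**Figure D3:**
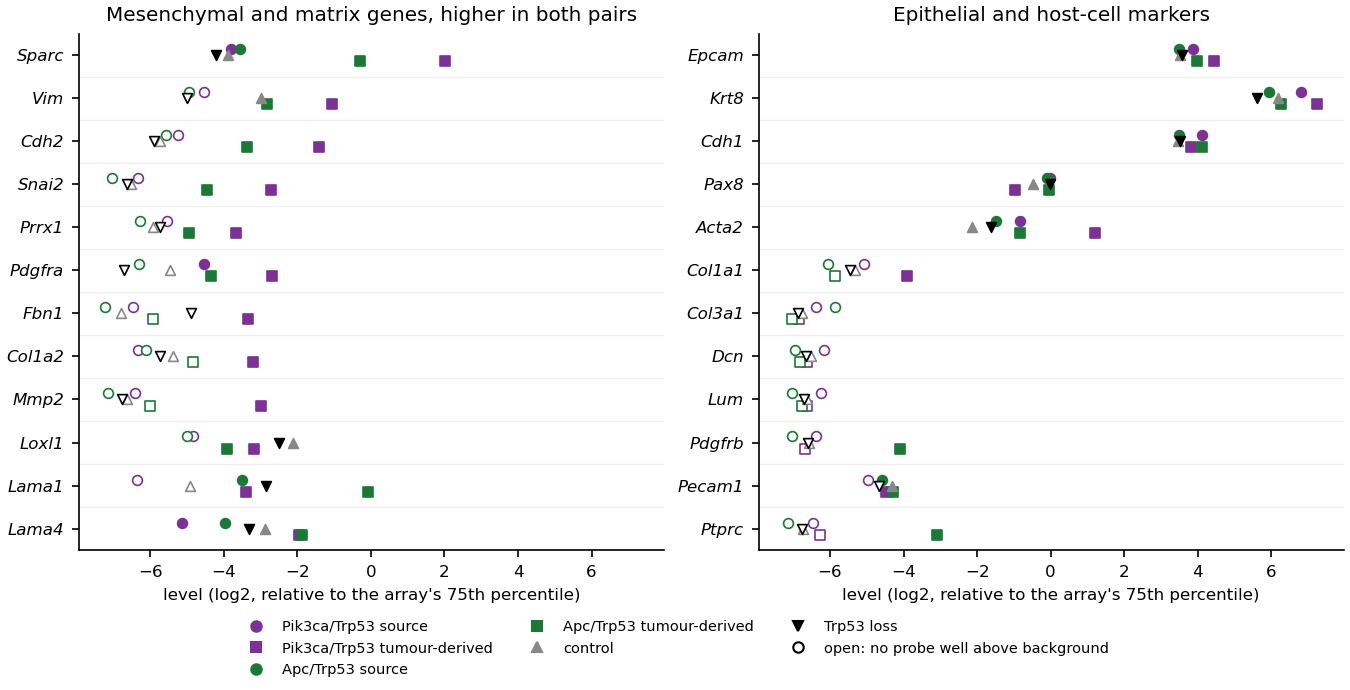
Levels (log2, relative to the array's 75th percentile) on the 6 arrays of 12 mesenchymal and matrix genes that were higher in both pairs (left) and of 12 markers of epithelium and host cells (right), with the symbols of the plot of leading genes. Epcam, Krt8 and Cdh1 lie above 3 on all arrays, whereas Dcn, Lum and Col3a1 are open symbols, not well above background, on every array. Col1a1 is above background only in the Pik3ca/Trp53 tumour-derived culture, and Pdgfrb only in the Apc/Trp53 one.

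Matrix and basement membrane genes moved as single members. In the basement membrane list 2 of 18 tested genes were higher in both pairs and none lower, against 2.54% and 1.28% of all genes. Lama1, the laminin chain of early basement membranes, was at least 1.72-fold and 10.8-fold higher. Lama4, a laminin chain of vessels and stroma, was at least 4.37-fold and at least 3.90-fold higher. Col18a1 had levels of 3.92 and 3.21 in the Pik3ca/Trp53 pair and 3.63 and 2.93 in the Apc/Trp53 pair, a difference under 2-fold. In the list of matrix remodelling genes 2 of 27 met the rule for the higher set, against 2.54% of all genes. They were the gelatinase Mmp2 and the crosslinking enzyme Loxl1, and both entered the test through tumour-derived cultures. Mmp2 was above background in the Pik3ca/Trp53 tumour-derived culture alone, so its ratio in the Apc/Trp53 pair has no measured side, and Loxl1 was not well above background in either source. Loxl1, at least 1.99-fold and at least 1.94-fold higher, was at -3.18 and -3.92 in the tumour-derived cultures and thus below its levels in the control (-2.12) and Trp53 loss (-2.51). Another 6 genes of this list moved in opposite directions, against 5.29% of all genes.

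Single genes for carrier and secreted proteins were also in the higher set. Trf, the iron carrier transferrin, had levels of -4.18 in the control, -3.22 in Trp53 loss, 1.12 and 7.63 in the Pik3ca/Trp53 pair and -2.80 and 0.79 in the Apc/Trp53 pair, 90.9-fold and 12-fold higher after growth. The transferrin receptor gene Tfrc, named after its values were seen, was lower: its levels were 1.91 and 0.48 in the Pik3ca/Trp53 pair and 1.98 and 0.51 in the Apc/Trp53 pair (2.71-fold and 2.77-fold). Clu, the secreted chaperone clusterin, had levels of 7.33 in the control, 6.52 in Trp53 loss, 5.99 and 8.17 in the Pik3ca/Trp53 pair and 3.18 and 6.43 in the Apc/Trp53 pair, and was 4.53-fold and 9.52-fold higher. Only the Pik3ca/Trp53 tumour-derived culture exceeded the control, and the Apc/Trp53 one ended below both the control and Trp53 loss. Of 24 mucosal defence genes 2, Wfdc18 and Bpifb1, were higher in both pairs, against 2.54% of all genes. Bpifb1 was not well above background in either source and entered the test through the tumour-derived cultures. The count therefore carries no weight as a share. Wfdc18, a whey acidic protein family member, was 6.92-fold and 4.97-fold higher. Bpifb1, a secreted protein of airway and glandular mucosa, was at least 21.1-fold higher in the Apc/Trp53 pair. In the Pik3ca/Trp53 pair the level of Bpifb1 after growth, -4.24, was below the limit that its faint source signal allows, so no bound can be given there. Lpl, which frees fatty acids from lipoproteins, was at least 1.97-fold and at least 5.12-fold higher, and Plin4, a coat protein of lipid droplets, 2.69-fold and 6.03-fold lower.

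Among regulators each list had only 1 or 2 genes in a set, to be read against 2.54% of all genes higher and 1.28% lower. Of the members from the TGF-beta and BMP, FOXO, Wnt, ERK, Notch and multiciliated lists, Id3 alone stayed in its set under 6 alternatives. These covered scaling, background correction and probe choice but not the filter on all 4 arrays. With that filter Id3 was not in the higher set, as its probe was dim in the Pik3ca/Trp53 source. Id3, an inhibitor of helix-loop-helix factors and a target of BMP signalling, had levels of -3.63 in the control, -3.46 in Trp53 loss, -6.43 and -1.30 in the Pik3ca/Trp53 pair and -3.31 and 0.56 in the Apc/Trp53 pair. It was at least 7.32-fold and 14.6-fold higher, above all 4 ungrafted cultures in both pairs. It was the single member of 26 tested TGF-beta and BMP pathway genes in the higher set, and Gdf15 the single one in the lower set. Etv5, a transcription factor of the ERK pathway, was 5.57-fold and 2.22-fold higher, at 1.78 and 4.26 and at 3.94 and 5.09. The FOXO targets Fbxo32, a ubiquitin ligase, and Bcl2l11, which encodes the death-promoting protein Bim, were the 2 of 24 tested FOXO genes in the higher set, at 38.2-fold and 2.66-fold and at least 2.16-fold and at least 2.40-fold. Cd44, a hyaluronan receptor, and Nkd2, a Wnt feedback inhibitor, were the 2 of 25 Wnt targets that moved alike, Cd44 by at least 11.5-fold and at least 1.5-fold and Nkd2 by at least 3.47-fold and 2.21-fold. Dtx1, a Notch regulator, was at least 3.26-fold and 3.52-fold higher. Foxj1, the switch for motile cilia, had levels of 0.08 in the control, -1.52 in Trp53 loss, -3.33 and -2.28 in the Pik3ca/Trp53 pair and -2.62 and -1.05 in the Apc/Trp53 pair. It was 2.07-fold and 2.96-fold higher after growth and still below the control in both, while of 22 tested multiciliated genes it alone was in the higher set and Deup1, which builds centrioles, alone in the lower. The factors Foxa1 (9.80-fold and 4.46-fold) and Gata3 (4.22-fold and 2.87-fold), which govern glandular and luminal epithelia and were picked out after their values were seen, were higher in both pairs and well above background on all 4 arrays. The imprinted noncoding gene H19 was at least 20.5-fold and at least 2.68-fold higher, and Irf7, a master regulator of interferon genes, 2.05-fold and 7.12-fold. H2-Ab1, an MHC class II chain, was 3.09-fold and at least 4.99-fold higher.

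The lower set held genes of amino acid supply. Cth, which makes cysteine from cystathionine, had levels of -1.17 in the control, 0.88 in Trp53 loss, 0.17 and -2.31 in the Pik3ca/Trp53 pair and 2.21 and -0.95 in the Apc/Trp53 pair, 5.58-fold and 8.95-fold lower after growth. Slc7a11, the cystine importer, was at -0.67 in the control, -1.57 in Trp53 loss, -0.36 and -2.04 in the Pik3ca/Trp53 pair and -0.59 and -2.98 in the Apc/Trp53 pair. Both tumour-derived cultures were below all 4 ungrafted ones, by 3.21-fold and 5.24-fold within their pairs. Asns, which makes asparagine, had levels of 1.79 in the control, 2.69 in Trp53 loss, 1.07 and 0.05 in the Pik3ca/Trp53 pair and 3.12 and 1.11 in the Apc/Trp53 pair (2.02-fold and 4.05-fold lower). Mthfd2, a mitochondrial enzyme of folate-bound carbon units, was at -0.45 and -1.83 and at 1.27 and -1.0 (2.59-fold and 4.82-fold lower). Asns, Mthfd2 and Slc7a11 were the 3 of 28 tested genes of the list of ATF4 and endoplasmic reticulum stress genes in the lower set. None was in the higher set, against 1.28% of all genes lower and 2.54% higher. Another 4 of the 28 moved at least 2-fold in opposite directions, against 5.29% of all genes. Slc7a11 alone stayed in the lower set under all 6 of those alternatives: with normexp it was the only 1 of the 3, and Asns also left the set with quantile normalization and with outlier spots kept. The list's median difference was -0.328 in the Pik3ca/Trp53 pair and -0.695 in the Apc/Trp53 pair. Chosen after their values were seen, Slc7a3, which imports arginine and lysine, was 3.48-fold and 10.7-fold lower, the folate enzyme Aldh1l2 2.48-fold and 8.06-fold, the isoleucine tRNA ligase gene Iars 2.15-fold and 2.69-fold and the glutamine importer Slc38a1 at least 5.40-fold and 2.50-fold. Genes picked in this way carry no weight as a share. Ddit3, Atf3 and Hspa5 were also chosen after their values were seen and did not meet the rule. Ddit3, which encodes the factor CHOP, was 2.57-fold higher in the Pik3ca/Trp53 pair and 2.18-fold lower in the Apc/Trp53 pair. Atf3 was 2.84-fold higher and 3.06-fold lower in the same order. The chaperone gene Hspa5 was 1.21-fold and 1.09-fold lower.

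The promoters of these genes were read for the short motif that ATF4 and its partners bind, TGATGNAA on either strand, to show which of the genes carry it near the start of transcription. RefSeq windows of the GRCm38.p6 build, from 250 bases before to 50 after an annotated start, matched 149 of the 201 lower genes, and 8 of them (5.37%) held the motif. The share was 4.71% of the 276 matched higher genes, 2.98% of the 12417 tested genes with a window and 4.51% of all 27025 genes with a window, and with 8 genes the share in the lower set rests on few matches. Among the 26 matched genes of the ATF4 list it was 6 (23.1%), a list drawn up from known targets of the factor. The windows of Angptl8, the leading gene of the lower set, and of the 3 list members are printed 5′ to 3′ on the gene's strand, with each match in capitals. They lie at chr9:21835260-21835559 (plus strand), chr6:7693160-7693459 (minus strand), chr3:50443564-50443863 (minus strand) and chr6:83317555-83317854 (minus strand).
Angptl8: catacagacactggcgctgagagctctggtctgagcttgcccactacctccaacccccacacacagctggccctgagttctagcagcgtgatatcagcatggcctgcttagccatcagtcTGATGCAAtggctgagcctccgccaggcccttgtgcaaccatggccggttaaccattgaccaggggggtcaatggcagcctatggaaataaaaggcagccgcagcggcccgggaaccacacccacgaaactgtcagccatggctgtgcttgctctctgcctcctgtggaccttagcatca
Asns: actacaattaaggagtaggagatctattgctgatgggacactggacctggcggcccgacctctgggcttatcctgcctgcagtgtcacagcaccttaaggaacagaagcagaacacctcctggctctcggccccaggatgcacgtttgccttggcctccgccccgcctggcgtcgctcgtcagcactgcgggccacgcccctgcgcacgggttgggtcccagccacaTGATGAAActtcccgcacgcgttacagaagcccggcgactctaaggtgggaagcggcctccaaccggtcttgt
Slc7a11: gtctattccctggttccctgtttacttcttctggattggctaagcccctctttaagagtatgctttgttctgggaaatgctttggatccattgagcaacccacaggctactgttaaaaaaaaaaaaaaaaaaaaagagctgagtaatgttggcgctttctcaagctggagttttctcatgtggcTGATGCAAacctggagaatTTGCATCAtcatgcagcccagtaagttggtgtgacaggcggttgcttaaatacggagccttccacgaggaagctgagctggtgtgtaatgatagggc
Mthfd2: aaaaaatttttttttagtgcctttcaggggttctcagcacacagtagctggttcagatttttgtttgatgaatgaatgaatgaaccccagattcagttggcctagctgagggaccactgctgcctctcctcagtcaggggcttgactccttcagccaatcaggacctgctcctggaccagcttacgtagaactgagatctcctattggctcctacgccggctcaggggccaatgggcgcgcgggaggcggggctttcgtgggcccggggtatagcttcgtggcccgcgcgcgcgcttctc
The Angptl8 window held 1 match, from 130 to 123 bases before the start. In the Asns window 1 match lay from 23 to 16 bases before it, and in that of Slc7a11 there were 2, at 66 to 59 and, on the other strand, 47 to 40 bases before it. The Mthfd2 window held none of these letters. A match describes the sequence and says nothing of occupancy in these cultures.

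Other leading genes of the lower set had varied roles. Angptl8, a liver and fat hormone that restrains lipoprotein lipase, had levels of -0.08 in the control, 2.40 in Trp53 loss, 0.94 and -3.17 in the Pik3ca/Trp53 pair and 1.78 and -2.17 in the Apc/Trp53 pair. It was 17.2-fold and 15.4-fold lower, and both values after growth lay below all 4 ungrafted cultures. Them5, a mitochondrial thioesterase, was at 1.67 and -2.61 and at 1.31 and -1.21, 19.4-fold and 5.75-fold lower and again below all ungrafted cultures. Kng1, the precursor of bradykinin, was at 0.96 and -1.46 and at 0.84 and -1.47 (5.35-fold and 4.95-fold lower). Its neighbour Kng2, named after its value was seen, was 9.16-fold and 3.13-fold lower, and cross-hybridisation between these near-identical genes was not tested. Calml4, a calmodulin-like protein of brush borders, was 9.87-fold and 4.41-fold lower. Pcdh17, a protocadherin, was 4.21-fold and 8.76-fold lower, and Lims2, an adaptor at integrin adhesions, 4.81-fold and 5.0-fold, from 2.6 to 0.33 and from 1.99 to -0.33. Plcxd3, a phospholipase-like protein, was at least 16.6-fold and 4.11-fold lower, and Bcl2l15, a member of the Bcl2 family, 4.39-fold and at least 2.70-fold.

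The late cornified envelope genes are neighbours on chromosome 3 and closely alike in sequence, and Lce3c was among the leading lower genes. It had levels of 0.25 in the control, 0.32 in Trp53 loss, 1.43 and -0.67 in the Pik3ca/Trp53 pair and 2.6 and -0.36 in the Apc/Trp53 pair, 4.30-fold and 7.79-fold lower. Lce3b (3.2-fold and 6.48-fold) and Lce3d (3.75-fold and 6.62-fold), named after their values were seen, had like values, and cross-hybridisation between these near-identical genes was not tested. Ifitm6, an interferon-induced membrane protein, had levels of 4.66 and 2.65 in the Pik3ca/Trp53 pair and 5.16 and 1.29 in the Apc/Trp53 pair (4.02-fold and 14.6-fold lower). The control, at 1.2, lay below both values after growth. The 36 genes that were above background in both sources and in neither tumour-derived culture were fainter than their counterparts in the higher set, and 5 were at least 2-fold lower in both pairs by the bound. They included Laptm5, a lysosomal protein best known from leukocytes, at least 4.22-fold and at least 3.30-fold lower, and S100a7l2, an S100 protein of squamous epithelium, at least 2.71-fold and at least 6.89-fold. The kinase Prkg1 was at least 2.49-fold and at least 2.41-fold lower, the muscle protein Actn2 at least 2.16-fold and at least 3.03-fold, Smim5 at least 2.45-fold and at least 2.11-fold, and Fbxw16 at least 1.86-fold and at least 3.66-fold. Gdf15, a stress-induced hormone and a target of both p53 and ATF4, had levels of 6.70 in the control, 4.76 in Trp53 loss, 2.20 and 1.17 in the Pik3ca/Trp53 pair and 5.35 and 1.21 in the Apc/Trp53 pair. It was 2.04-fold and 17.6-fold lower, and both tumour-derived cultures came to nearly the same level. Cxcl14, an epithelial chemokine, was the single cytokine of 28 in the lower set (2.61-fold and 2.07-fold), and Nuak2, a kinase and YAP target, the single YAP target of 23 (3.08-fold and 2.09-fold). Across all genes 1.28% were in the lower set.

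Several broad programmes had no member in either set. No gene of the list of 31 tested cell cycle genes, of 30 DNA replication genes, of 32 glycolysis and hypoxia genes, of 33 cholesterol and fatty acid genes, of 18 secretory oviduct markers or of 30 general epithelial markers was in either set. With 2.54% of all genes in the higher and 1.28% in the lower set, counts of 0 in lists of this size are near the background and are not a result about these lists. The cell cycle list had a median of -0.502 in the Pik3ca/Trp53 pair and 0.968 in the Apc/Trp53 pair. The cholesterol list had -0.963 and 0.0407. Ribosomal protein genes were slightly lower in both genotypes, with 34 of 36 negative in both pairs and medians of -0.255 and -0.300, and none reached 2-fold. The medians over all genes were also below 0, at -0.115 and -0.0207. Of all genes 49.3% had the same sign in both pairs, and the share negative in both was not counted. Rps24 was positive in both pairs, from 5.23 to 6.07 and from 5.57 to 6.02, but its mean difference was -0.06 when the brightest probe alone was used. Interferon genes had a median of -0.429 in the Pik3ca/Trp53 pair and 2.10 in the Apc/Trp53 pair, where 31 of 37 were at least 2-fold higher against 11.3% of all genes, and Irf7 was the member in the shared set. Pax8, at -0.02 and -0.97 and at -0.09 and -0.03, and Ovgp1, at 2.84 and 2.47 and at 2.96 and 4.09, were in neither set.

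**Figure D4:**
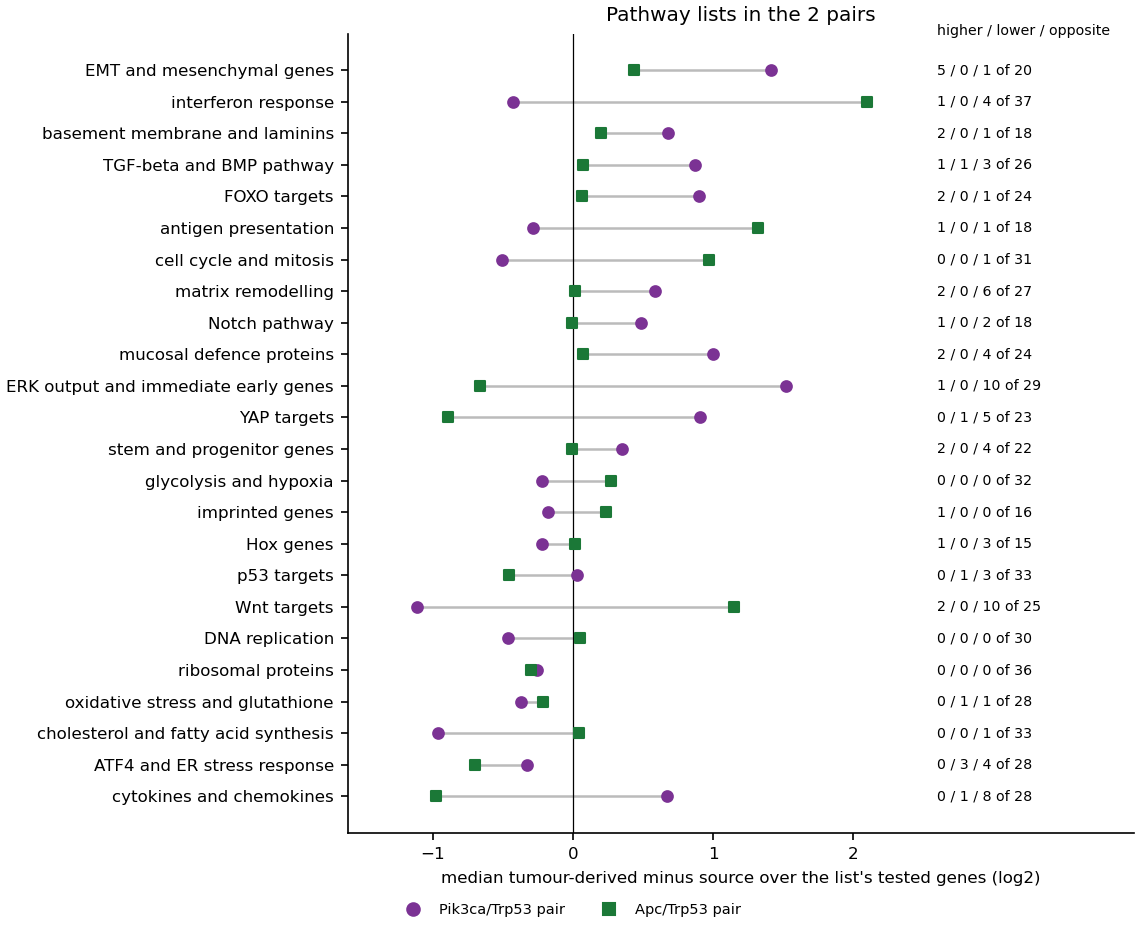
Median tumour-derived minus source difference (log2) over the tested genes of 24 pathway lists, with circles for the Pik3ca/Trp53 pair and squares for the Apc/Trp53 pair; the numbers at the right count genes at least 2-fold higher in both pairs, lower in both, and in opposite directions. The mesenchymal list is at the top with 5 of 20 genes higher in both, and the Wnt, ERK and YAP lists have their medians on opposite sides of 0.

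Genes that parted ways outnumbered those that moved alike. Of the 829 genes at least 2-fold apart in opposite directions, 401 were higher in the Pik3ca/Trp53 pair and lower in the Apc/Trp53 pair, and 428 the reverse. No array was repeated, so the difference between the pairs has no test. Gulo, the enzyme of vitamin C synthesis, had levels of 0.11 in the control, -3.53 in Trp53 loss, 3.65 and -3.89 in the Pik3ca/Trp53 pair and 0.17 and 6.49 in the Apc/Trp53 pair. It was 187-fold lower in the first and 79.7-fold higher in the second. Aldh1a1, which makes retinoic acid, was 15.7-fold lower and 18-fold higher in the same order, and Gkn3, a gastrokine of gastric mucosa, 18.2-fold lower and 7.52-fold higher. In the other direction Tm4sf1, a tetraspanin-like surface protein, was at 1.22 and 6.67 in the Pik3ca/Trp53 pair (43.7-fold higher) and at 1.99 and -0.85 in the Apc/Trp53 pair (7.15-fold lower). Akr1c18, which inactivates progesterone, was 8.81-fold higher and 8.73-fold lower, and Basp1, a membrane-bound signalling protein, 9.66-fold higher and 7.49-fold lower. The gene Pik3ca itself was 4.67-fold lower in the Pik3ca/Trp53 pair, from 2.01 to -0.21, and 2.55-fold higher in the Apc/Trp53 pair, from 0.77 to 2.12. Whether its probe separates the mutant from the normal copy is not given in the sources used here. Against 5.29% of all genes, 10 of 25 tested Wnt targets were opposite, with medians of -1.11 in the Pik3ca/Trp53 pair and 1.15 in the Apc/Trp53 pair, and 10 of 29 ERK output and immediate early genes were, with medians of 1.52 and -0.66.

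**Figure D5:**
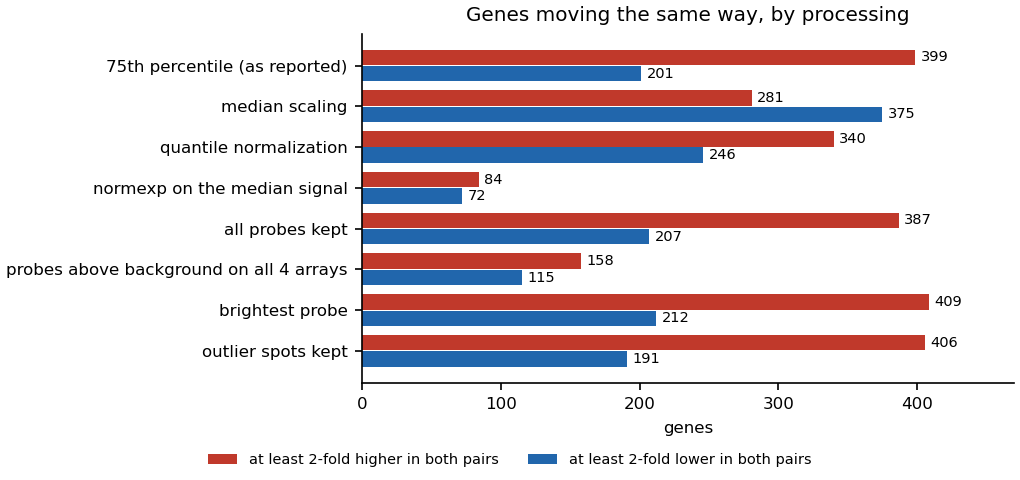
Number of genes (horizontal axis) at least 2-fold higher (red) and at least 2-fold lower (blue) in both pairs under each way of processing the arrays. The higher set is the larger one in all but median scaling (281 against 375), and it is smallest with normexp background correction (84).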

How the data were processed

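RNA of 6 cultures was hybridised singly, 1 array each, to Agilent arrays with Cy3, per the labels' protocols. Per the submitters' processing notes the scans were read with Agilent Feature Extraction 11.0.1.1, and the deposited scanner files hold its processed signal intensity. A table of log2 values deposited beside them covers 2047 probes; its pair differences equal those of the scanner files up to a constant of 0.0312 and -0.027, while its scale and centring are not stated. Here log2 processed signal was set relative to each array's 75th percentile, control and outlier-flagged spots were dropped, and probes well above background on at least 1 of 4 arrays were averaged per gene. RefSeq names (GRCm38.p6) matched 34566 of 56605 probes; 22878 probes gave 15679 genes, 10039 of them with 1 probe. Where a gene had several probes well above background on all 4 arrays (4475 genes), the pair differences had a median SD between probes of 0.183 and 0.104.

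The paired test was limma 3.58.1 in R 4.3.3 (genotype as block, 1 residual degree of freedom) with Benjamini-Hochberg adjustment over all genes, tested on simulated data. Agilent's processed intensities were used as the authors deposited them; since the files give no mean signal, normexp (offset 50) was run on the median signal. The replicate number is 1 in every group, and the pairing comes from the genotype in the labels.

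Genes named are the 12 higher and 12 lower with the largest smaller-of-2 difference, 6 each on either side of background, up to 4 per list, 6 in each opposite direction, and fixed identity genes. The members and lists were chosen with earlier results of these data known. Other genes are marked as chosen after their values were seen.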

Additional observations from a re-analysis of the deposited data

Results flagged for a closer look

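The cultures from the 2 genotypes went opposite ways for 829 genes, each at least 2-fold higher in one pair and at least 2-fold lower in the other. With 1 array per group this difference was not tested, for these genes or for the lists that follow.

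Lists were singled out where the median over the tested genes lay at least 0.5 log2 units on opposite sides of 0 in the pairs. Squamous and basal epithelial markers had a median of 2.18 in the Pik3ca/Trp53 pair and -0.78 in the Apc/Trp53 pair. ERK output and immediate early genes had 1.52 and -0.66, YAP targets 0.906 and -0.887, and cytokines and chemokines 0.673 and -0.978, in the same order. Wnt targets had -1.11 in the Pik3ca/Trp53 pair and 1.15 in the Apc/Trp53 pair, and cell cycle and mitosis genes had -0.502 and 0.968.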

How the results depend on the processing

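The paired limma fit called 0 genes higher and 0 lower under all 14 alternatives to it. With no genotype block (no pairing) 270 genes higher and 215 lower had an unadjusted p under 0.05 and the smallest adjusted p of limma was 0.998. Leaving out 1 array in that unpaired fit, with the lone array of a group assumed to vary like the other group, gave smallest adjusted p from 0.101 (without the Apc/Trp53 tumour-derived array) to 1. The counts of 399 higher, 201 lower and 829 opposite genes stayed within 1.5 times with quantile normalization, all probes, the brightest probe and outlier spots kept, and the lower count became 375 with median scaling. Only probes above background on all 4 arrays gave 158, 115 and 395. Normexp on the median signal, chosen after seeing that the files hold no mean signal, gave 84, 72 and 269, and normexp on the mean signal was not run. A fold of 1.5 gave 739, 623 and 1715, and a fold of 4 gave 105, 28 and 198. With faint signals raised to the background limit 209 genes were higher and 513 opposite. With 1 pair alone, 1768 to 2129 genes were higher and 1246 to 1840 lower. Of the 399 higher and 201 lower genes, 69 and 69 kept their class under all 6 settings other than the filter on all 4 arrays. The cause of these shifts was not tested.

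Of 890 values of single genes under alternatives 3 changed sign: Cdh1 to -0.070 with median scaling, Col1a1 to -0.0060 with normexp and Rps24 to -0.0563 with the brightest probe. List medians that changed sign were endothelium (-0.211, -0.0667, -0.0501, -0.0943 and -0.475 with median scaling, quantile, normexp, all probes and the filter on all 4 arrays), matrix remodelling and mucosal defence (-0.0367 and -0.0498, median scaling), and multiciliated cells and mesothelium (0.124 and -0.205, filter on all 4 arrays). In the higher set, 242 of 399 genes were not well above background on all 4 arrays.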

Other observations

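Further genes moved alike in both pairs, and those named here were chosen after their values were seen. Growth factor genes included Igf1, the insulin-like growth factor, at -3.05 and 1.5 in the Pik3ca/Trp53 pair and -1.88 and -0.37 in the Apc/Trp53 pair (23.3-fold and 2.84-fold higher), and not well above background in the control or Trp53 loss. Igfbp5, which binds it, was 141-fold and 3.22-fold higher, Gas6, the ligand of the Axl family of receptors, 15.5-fold and 3.96-fold, and Ptn, a heparin-binding growth factor, 2.07-fold and 7.05-fold. Wnt10a, a Wnt ligand, was at least 7.53-fold and at least 4.70-fold higher, and Fzd7, a Wnt receptor, 4.71-fold and 2.21-fold. Cartilage-type collagen Col9a2 was 66.1-fold and 3.11-fold higher, and Col8a1, a short-chain collagen, 19.3-fold and 4.08-fold. Tgfbr3, a TGF-beta co-receptor, was 29-fold and 2.03-fold higher. Ccnd2, a D-type cyclin, was 3.69-fold and 6.42-fold higher.

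In retinoid handling, Cyp26b1, which breaks down retinoic acid, was 3.97-fold and 23.9-fold higher, and Rbp4, the retinol carrier, 4.72-fold and 3.43-fold lower. Evc and Evc2, adjoining genes of the ciliary Hedgehog machinery, were both in the higher set, at least 4.84-fold and 18.9-fold and at least 1.45-fold and 3.77-fold. Ces2b and Ces2c, adjoining carboxylesterase genes, were both in the lower set, at least 8.87-fold and 6.16-fold and at least 7.38-fold and 6.23-fold, and cross-hybridisation between them was not tested. Uox, which degrades uric acid, was 2.23-fold lower in the Pik3ca/Trp53 pair and 99.1-fold lower in the Apc/Trp53 pair.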
